A study of Mus musculus with 23 samples.

Results

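The genes described here are 9 genes of zinc handling, taken by symbol from the count table of hippocampal CD11b+ cells. They are the metallothioneins *Mt1* and *Mt2*, the metal sensor *Mtf1*, the zinc exporters *Slc30a1* and *Slc30a7*, and the zinc importers *Slc39a1*, *Slc39a6*, *Slc39a7* and *Slc39a10*. All 9 were among the 18876 genes of the table and all 9 were among the 18759 genes tested. Bulk RNA was sequenced from cells that magnetic beads against CD11b, a myeloid integrin found on microglia, had pulled out of the hippocampi of female mice on a mixed 129S;C57BL/6J background. Every mouse, in all 4 groups, was Slc11a2 fl/fl and carried 1 copy of the tamoxifen-inducible recombinase Cx3cr1Cre-ERT2, which acts in cells that use the *Cx3cr1* promoter. Slc11a2KD mice, at 5 to 6 months old, had tamoxifen (4 mg daily for 5 days, by gavage) and Control mice had corn oil, so knockdown and tamoxifen cannot be told apart. Mice were killed at 15 to 18 months of age, and within each treatment they were either APP/PS1 hemizygous, a transgenic model of amyloid plaques, or WT. The groups held 6 Control WT, 6 Control APP/PS1, 5 Slc11a2KD WT and 5 Slc11a2KD APP/PS1 libraries, named below by the number in their label. Control libraries carry numbers from 5 to 17 and Slc11a2KD libraries numbers from 1 to 4 or 18 to 23. Knockdown therefore cannot be told apart from these runs of numbers either, and the labels do not say whether the runs were batches. The study describes the libraries as biological replicates from separate mice.

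Metallothioneins are small, cysteine-rich proteins that bind zinc and copper and buffer free zinc in the cell. MTF1 senses zinc through its zinc fingers, binds short metal response elements in promoters and turns on the genes of metallothioneins and of the exporter SLC30A1. Proteins of the SLC30 family (ZnT) move zinc out of the cytosol, into organelles or out of the cell, and proteins of the SLC39 family (ZIP) move zinc into the cytosol. In the brain, metallothioneins are best known from astrocytes and are also found in activated microglia.

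*Mt1* was about 2-fold higher in APP/PS1 than in WT cells, and it was the 1 gene of the 9 that passed the test under both treatments. Neither call held in all alternatives, the Control call being lost without Control WT library 6 or 9 or where a log2 fold change over 1 was asked for, and the Slc11a2KD call with libraries 18 to 23 alone or with a library property, the length slope, as a covariate. It stood at 43.9 CPM (counts per 1000000 counts of the library, scaled by the TMM method) ± 21.8 (SD, n = 6) in Control WT and 79.1 ± 9.36 (SD, n = 6) in Control APP/PS1. In the Slc11a2KD groups it stood at 47.0 ± 13.7 (SD, n = 5) in WT and 97.1 ± 19.4 (SD, n = 5) in APP/PS1. In the Slc11a2KD comparison the importer *Slc39a1* also rose and the importer *Slc39a10* also fell, both close to the threshold. None of the 9 genes passed the test between Slc11a2KD and Control cells of the same genotype. Of all genes tested, 10.5% were called between the Control groups, 16.2% between the Slc11a2KD groups and 0% between Slc11a2KD and Control cells (edgeR). The last share depended on the tool and on single libraries, since between the APP/PS1 groups DESeq2 called 580 genes and edgeR without Slc11a2KD APP/PS1 library 4 called 3069.

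The labelled cell type was checked first. A list of 10 markers of microglia was measured, and its summed level lay between 33492 and 50855 CPM in every library. Markers of other cells were present too, with summed levels of up to 3574 CPM for oligodendrocytes (*Mbp* up to 3170), 2016 for choroid plexus epithelium (*Ttr* up to 996), 714 for astrocytes (*Slc1a3* up to 692, *Gfap* up to 110) and 9.70 for neurons. Total counts on genes ran from 31128643 to 54872491 per library. *Slc11a2*, the targeted gene, was at a median of 33.5 CPM in Control WT, 41.5 in Control APP/PS1, 36.9 in Slc11a2KD WT and 58.2 in Slc11a2KD APP/PS1. It rose in APP/PS1 between the Slc11a2KD groups (log2 fold change 0.72, adjusted p = 0.00209, edgeR). Its gene count did not pass the test between libraries labelled Slc11a2KD and Control (adjusted p = 1 in WT and 0.205 in APP/PS1, edgeR), and the count covers the whole gene, not only the floxed exons, so it does not check the deletion. The study itself reports knockdown at exons 6 to 8 of *Slc11a2*, from the RNA sequencing and from RT-qPCR. The table held 1 further Control APP/PS1 library, number 10. The study left out a library of this group without giving its number in the text, and number 10 was taken to be that library because it is missing from the study's heat map. In it, 8 of the 9 genes lay outside the range of the other 6 libraries of that group, and *Mt1* was at 114 CPM, above all 6, and *Slc39a10* at 18.4 CPM, below all 6.

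The promoters of *Mt1*, *Mt2* and *Slc30a1* are shown because they are the best known targets of MTF1, and because, of the 8 genes with a promoter in the table, they alone held a match to the core of a metal response element. Each run is a RefSeq promoter on build GRCm38.p6, from 250 bases before to 50 bases after the RefSeq start site, 5′ to 3′ on the strand of the gene. Capitals mark TGCACNC or TGCGCNC on either strand, where N is any base, so that a match on the other strand reads as the reverse complement. *Mt1*, plus strand, is at chr8:94178839-94179138, *Mt2*, plus strand, at chr8:94172368-94172667 and *Slc30a1*, plus strand, at chr1:191906531-191906830.
Mt1: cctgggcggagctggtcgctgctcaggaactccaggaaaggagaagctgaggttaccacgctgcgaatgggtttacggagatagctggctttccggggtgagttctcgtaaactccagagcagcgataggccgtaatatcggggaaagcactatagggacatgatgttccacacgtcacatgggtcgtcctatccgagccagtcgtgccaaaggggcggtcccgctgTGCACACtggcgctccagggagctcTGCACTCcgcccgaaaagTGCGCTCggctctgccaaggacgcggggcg
Mt2: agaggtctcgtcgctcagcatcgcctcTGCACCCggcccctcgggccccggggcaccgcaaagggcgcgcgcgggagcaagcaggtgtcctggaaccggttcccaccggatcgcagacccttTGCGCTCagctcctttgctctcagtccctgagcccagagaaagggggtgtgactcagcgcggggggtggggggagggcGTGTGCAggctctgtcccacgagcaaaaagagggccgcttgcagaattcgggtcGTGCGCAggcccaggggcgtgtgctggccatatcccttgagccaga
Slc30a1: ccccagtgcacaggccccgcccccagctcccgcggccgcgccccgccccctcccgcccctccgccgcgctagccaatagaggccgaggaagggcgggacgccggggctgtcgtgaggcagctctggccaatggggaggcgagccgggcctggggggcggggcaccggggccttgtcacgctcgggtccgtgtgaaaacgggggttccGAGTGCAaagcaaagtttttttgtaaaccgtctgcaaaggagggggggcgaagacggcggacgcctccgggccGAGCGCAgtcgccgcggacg
The *Mt1* window held 3 matches, at -23, 2 and 20 from the start site, the *Mt2* window 4, at -223, -128, -50 and 4, and the *Slc30a1* window 2, at -43 and 30, where each position is that of the first base of the match in the printed run and the start site is 0. Of 32851 promoters of this length, 25.7% held at least 1 such match, 7.11% at least 2, 1.97% at least 3 and 0.517% at least 4. The windows of *Mtf1*, *Slc30a7*, *Slc39a1*, *Slc39a7* and *Slc39a10* held 0 matches, which says only that these letters are not in these windows. A match is a description of the sequence and not a bound site. The same 3 runs each occur once in GRCm39, the build of the annotation used for gene lengths, at chr8:94905467-94905766, chr8:94898996-94899295 and chr1:191638643-191638942. In GRCm39 *Mt2* (chromosome 8, 94898819 to 94900207) and *Mt1* (chromosome 8, 94905710 to 94906955) lie on the same strand, 5502 bases apart. The starts of the 3 genes in this annotation differ from the RefSeq start sites of the runs. The whole *Mt2* run lies within the *Mt2* gene as annotated there, so its match positions hold for the RefSeq start site only. There *Slc39a1* lies at chr3:90155138-90160924 on the plus strand and *Slc39a10* at chr1:46845872-46964964 on the minus strand.

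Per length of exon, *Mt1* was the most abundant of 26 measured genes of metallothioneins, their sensor and zinc transporters, with a level of 53.2 CPM per kilobase of exon ± 21.9 (SD over 22 libraries). *Slc39a1*, a zinc importer of the plasma membrane, followed at 44.6 CPM per kilobase ± 7.67, and the SDs of these genes overlap. In Control WT the order of their levels was the other way round, with 38.9 CPM per kilobase ± 5.25 for *Slc39a1* and 35.3 ± 17.5 for *Mt1*. *Mt2* was at 7.51 CPM per kilobase ± 3.75, in eighth place after 5 genes outside the 9. *Slc30a1*, which exports zinc across the plasma membrane, was at 3.90 CPM per kilobase ± 0.620, *Slc39a10*, an importer of the plasma membrane, at 3.89 ± 1.13, and *Slc30a7*, which loads zinc into the Golgi, at 3.35 ± 0.53. *Slc39a6*, an importer that pairs with SLC39A10, was at 2.74 CPM per kilobase ± 0.579, *Mtf1* at 1.69 ± 0.394 and *Slc39a7*, which releases zinc from the endoplasmic reticulum, at 0.80 ± 0.361. Among these lower genes, from *Mt2* down to *Slc39a6*, the mean ± SD of each gene overlapped with that of the next of the 9, while *Slc39a6* and *Mtf1*, and *Mtf1* and *Slc39a7*, were apart by more than that. The length used matters for *Mt1*, whose exons of all transcripts span 1246 bases and whose principal transcript spans 549. Per kilobase of principal transcript, *Mt1* at 121 CPM and *Slc39a1* at 81.1 CPM kept the first and second place.

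**Figure D1:**
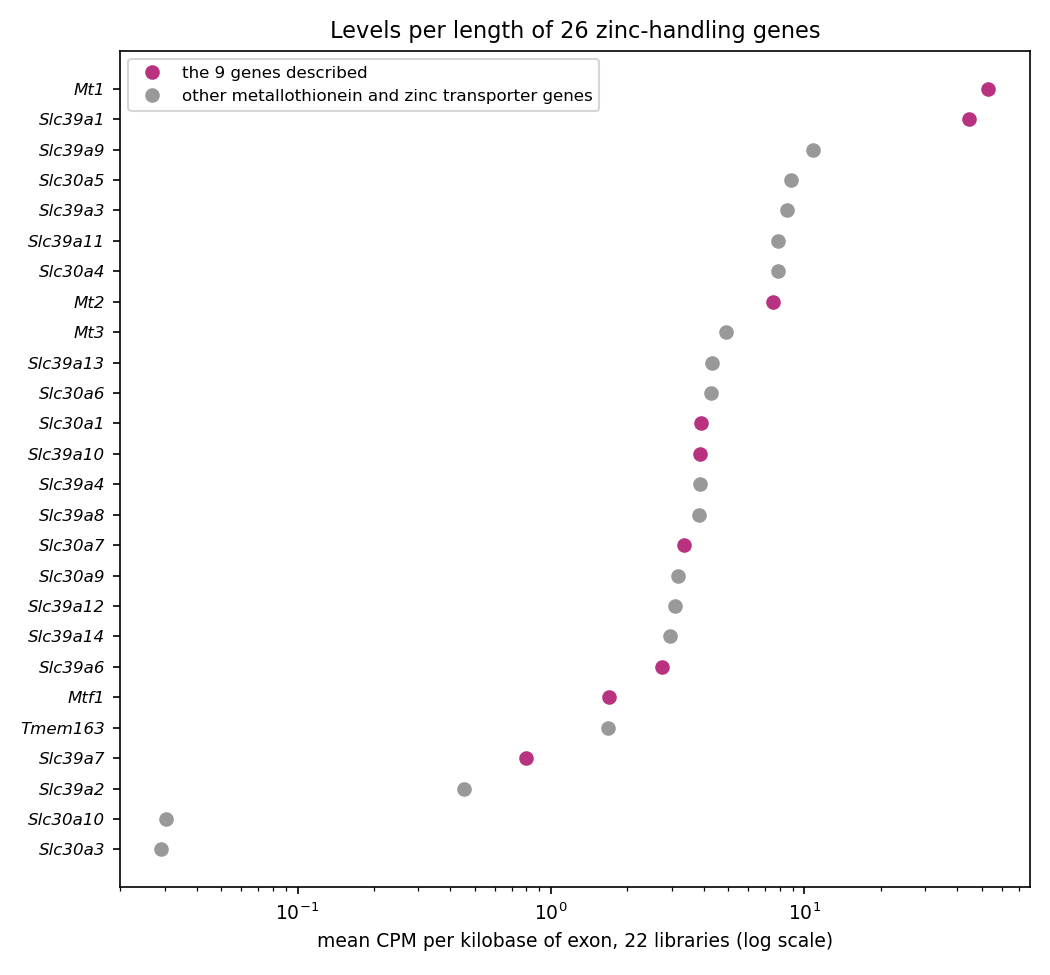
Mean level per kilobase of exon (CPM per kilobase, log scale, 22 libraries) of the 26 measured genes of metallothioneins, their sensor and zinc transporters, the 9 genes described in pink. *Mt1* at 53.2 and *Slc39a1* at 44.6 stand apart from *Slc39a9*, the next gene, at 10.8.

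For some of the 9 genes another gene lies on the same bases in the GENCODE M39 annotation. The study counted against an earlier GENCODE release, and whether the counting used strand is not given in the sources used here, so whether these overlaps touched the deposited counts is not known. *Slc39a7* shares 78.3% of its exon bases with the same-strand non-coding gene Gm20427, and it was at or under 3.42 CPM in every library. *Mt2* shares 82.4% of its exon bases with the opposite-strand gene Gm45774, *Slc39a1* 25.2% with Gm66066 and *Slc30a7* 15.5% with *Dph5*. Of these genes *Dph5* alone had a row in the count table, at a mean of 11.5 CPM. Smaller overlaps with opposite-strand genes that had rows were 4.50% of the exon bases of *Slc39a6* with *Elp2*, at 64.7 CPM, 8.36% of those of *Mtf1* with 1110065P20Rik, at 15.9 CPM, 8.26% of those of *Slc30a1* with 1700034H15Rik, at 0.0682 CPM, and 0.775% of those of *Slc30a7* with *Extl2*, at 24.5 CPM. *Slc39a10* shares 2.61% of its exon bases and *Mt1* none.

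The metallothioneins were compared first between Control APP/PS1 and Control WT, which asks what the amyloid model changes in cells without knockdown. *Mt1* ranged from 22.1 to 81.9 CPM in Control WT (median 37.0, n = 6) and from 69.2 to 91.7 CPM in Control APP/PS1 (median 79.4, n = 6). All but 1 of the 6 Control WT libraries lay below every Control APP/PS1 library, and Control WT library 14 at 81.9 CPM lay among them. The log2 fold change of *Mt1* was 0.85 (SE 0.23, a fold of 1.80, adjusted p = 0.0203, edgeR quasi-likelihood test with Benjamini-Hochberg adjustment over all genes tested). The exact permutation test on *Mt1* alone, two-sided over 6 against 6 libraries, gave p = 0.00866. Leaving out Control WT library 6 or 9 ended the call of *Mt1*, with an adjusted p of at most 0.0535 (edgeR), while leaving out library 14 raised its log2 fold change to 1.12.

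*Mt2*, the metallothionein next to *Mt1* on the chromosome, did not pass the test. It ranged from 1.87 to 11.5 CPM in Control WT (median 5.33, n = 6) and from 5.51 to 13.2 CPM in Control APP/PS1 (median 6.72, n = 6). Control WT libraries 14 and 15, at 11.5 and 9.90 CPM, lay above most of the APP/PS1 libraries, and the groups overlapped. Its log2 fold change was 0.37 (SE 0.38, adjusted p = 0.638, edgeR).

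Over the 9 genes, 1 passed the threshold in this comparison, *Mt1*, with 1 higher and 0 lower, where 10.5% of all genes tested were called, 5.99% higher and 4.48% lower. At an unadjusted p under 0.05, 3 of the 9 were higher and 0 lower, beside 24.3% of all genes. The added genes were *Slc39a1* and *Slc39a6*, with adjusted p = 0.152 and 0.201 (edgeR). The median log2 fold change of the 9 was 0.27, and that of all genes tested was -0.02. For 0 of the 9 did the groups not overlap, beside 8.36% of all genes.

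In Slc11a2KD APP/PS1 against Slc11a2KD WT, *Mt1* was at 69.9, 102, 90.2, 123 and 100 CPM in APP/PS1 libraries 4, 18, 20, 21 and 23, and at 40.7, 35.6, 35.3, 58.0 and 65.2 CPM in WT libraries 1, 2, 3, 19 and 22. The groups did not overlap, although APP/PS1 library 4, the lowest of its group, lay close to WT library 22, the highest of the other. The log2 fold change was 1.05 (SE 0.26, a fold of 2.07, adjusted p = 0.00722, edgeR), and the exact permutation test gave p = 0.00794, the smallest that 5 against 5 libraries allow. The lowest library of the APP/PS1 group and the 3 lowest of the WT group carry the numbers 1 to 4, and the others the numbers 18 to 23. Without APP/PS1 library 4, which the study kept but described as apart from its group, the log2 fold change of *Mt1* was 1.15 (adjusted p = 0.00294, edgeR). With libraries 18 to 23 alone, 4 against 2, the log2 fold change of *Mt1* was 0.72 with an adjusted p of 0.264 (edgeR), and with the length slope as a covariate it was 0.61 with an adjusted p of 0.105 (edgeR), both alternatives chosen after seeing the data.

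*Mt2* was at 5.32, 6.93, 7.49, 16.1 and 11.1 CPM in these APP/PS1 libraries and at 2.36, 5.52, 5.17, 4.51 and 7.94 CPM in the WT libraries. Libraries 21 and 23 were the highest and the rest overlapped with the WT group. Its log2 fold change of 0.88 (SE 0.42, adjusted p = 0.153, edgeR) was somewhat below that of *Mt1*, and its SE was larger. Over the alternatives it ran from 0.20 to 1.10, where that of *Mt1* ran from 0.61 to 1.20.

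**Figure D2:**
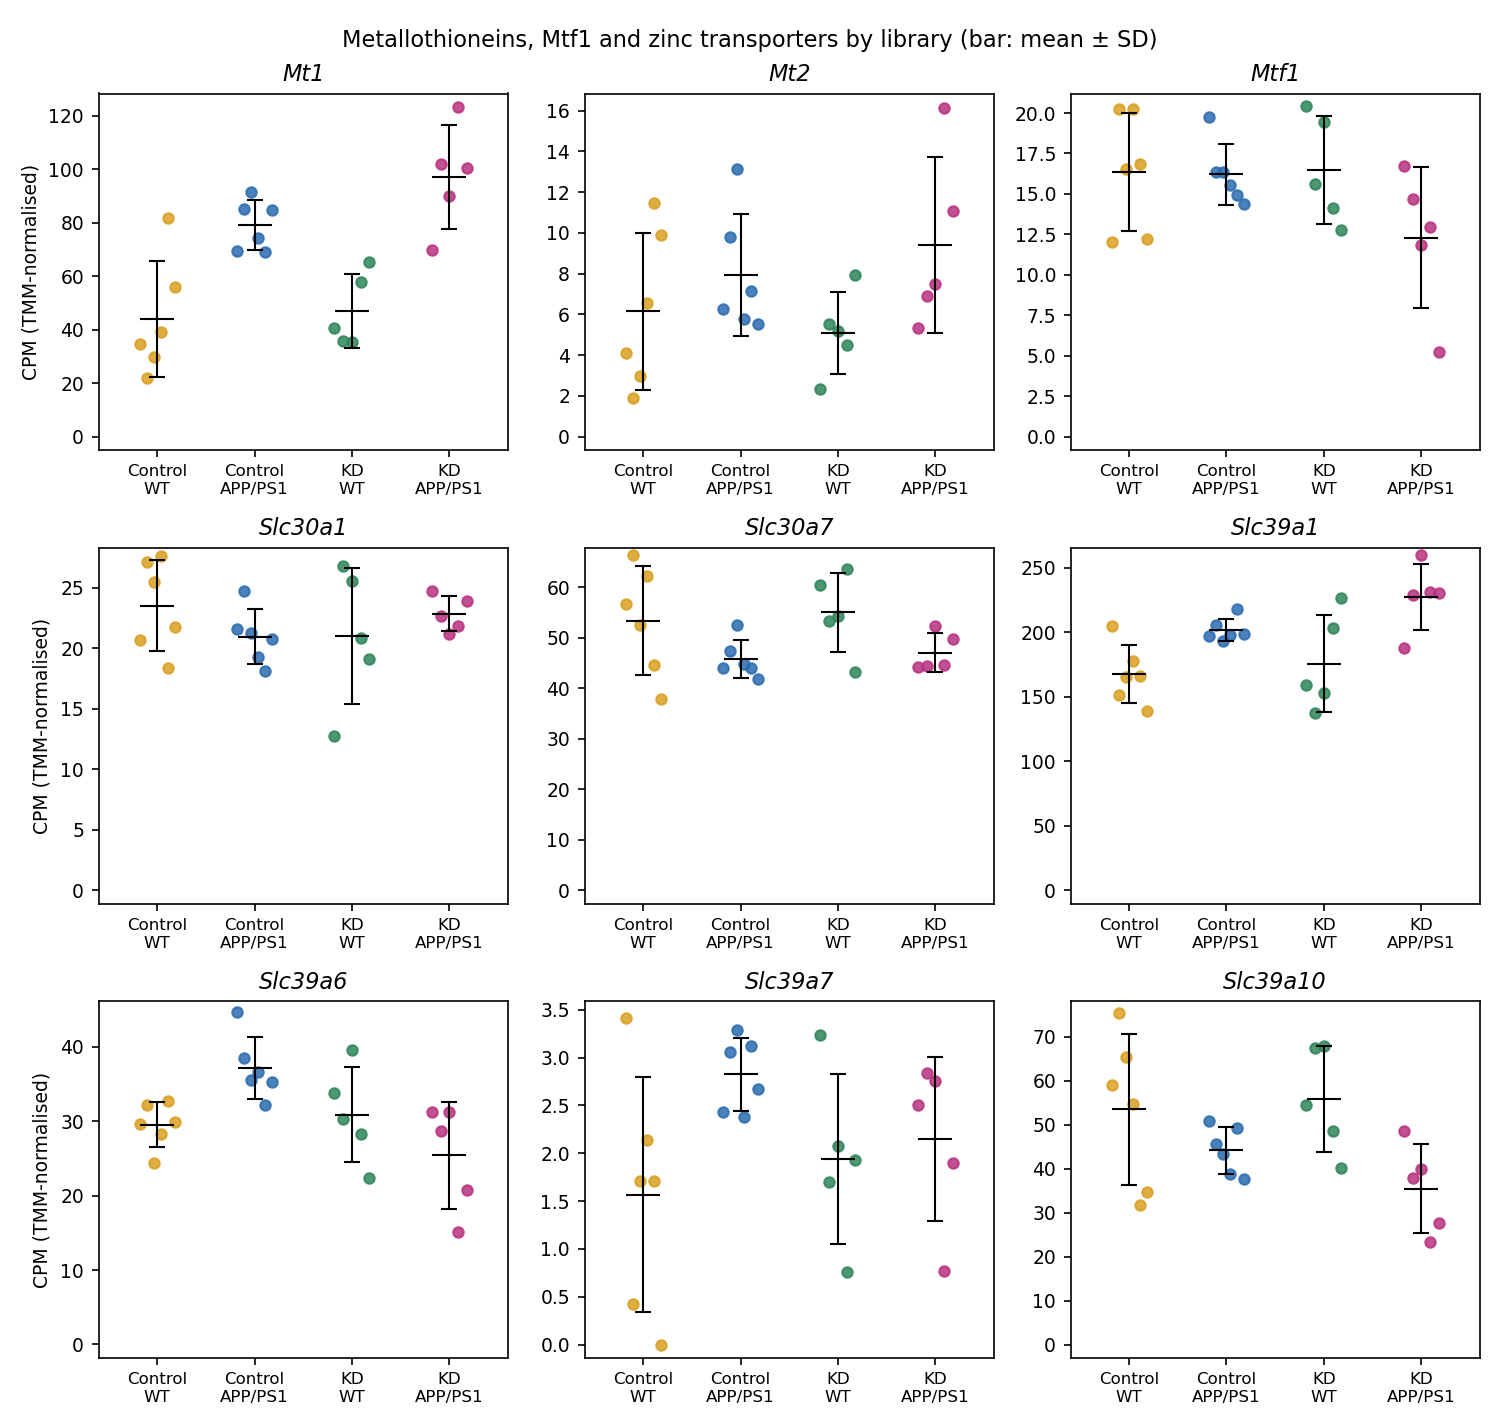
CPM of the 9 genes in each of the 22 libraries (points) by group, with the mean and SD (bars); KD stands for Slc11a2KD and each panel has its own axis. *Mt1* is higher in both APP/PS1 groups, at 79.1 and 97.1 CPM, than in the WT groups, at 43.9 and 47.0 CPM, and Control WT library 14 stands out at 81.9 CPM.

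*Mtf1*, the sensor that drives the metallothionein genes, did not pass the test in any comparison. It was at 16.4 CPM ± 3.65 (SD, n = 6) in Control WT, 16.2 ± 1.90 (SD, n = 6) in Control APP/PS1, 16.5 ± 3.35 (SD, n = 5) in Slc11a2KD WT and 12.3 ± 4.37 (SD, n = 5) in Slc11a2KD APP/PS1. The lower mean of the last group came with 1 low library, number 23 at 5.21 CPM, and its other 4 libraries lay between 11.9 and 16.8 CPM. Its log2 fold changes were -0.01 (SE 0.21, adjusted p = 0.986) between the Control groups and -0.42 (SE 0.23, adjusted p = 0.210, edgeR) between the Slc11a2KD groups. With 1 library left out, the value between the Slc11a2KD groups ran from -0.56 to -0.22.

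*Slc30a1*, the exporter that MTF1 also controls, lay between 18.4 and 27.6 CPM in Control WT, 18.2 and 24.7 in Control APP/PS1, 12.8 and 26.8 in Slc11a2KD WT and 21.2 and 24.8 in Slc11a2KD APP/PS1. Its log2 fold change was -0.16 (SE 0.15, adjusted p = 0.575, edgeR) between the Control groups. Between the Slc11a2KD groups it was 0.12 (SE 0.16, adjusted p = 0.674, edgeR), with the lowest library, Slc11a2KD WT library 1, at 12.8 CPM. *Slc30a7* lay between 37.8 and 66.4 CPM in Control WT, 41.8 and 52.6 in Control APP/PS1, 43.2 and 63.6 in Slc11a2KD WT and 44.2 and 52.3 in Slc11a2KD APP/PS1. Its log2 fold change was -0.22 in both comparisons (SE 0.12 and 0.14, adjusted p = 0.286 and 0.269, edgeR), with overlapping groups. Neither exporter passed the test in any comparison.

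Among the importers, *Slc39a1* was at 159, 137, 153, 203 and 226 CPM in Slc11a2KD WT libraries 1, 2, 3, 19 and 22 and at 187, 229, 259, 231 and 230 CPM in Slc11a2KD APP/PS1 libraries 4, 18, 20, 21 and 23. The WT libraries numbered 19 and 22 reached into the APP/PS1 range, and the APP/PS1 library numbered 4 lay below both. *Slc39a1* rose by a log2 fold change of 0.37 (SE 0.13, a fold of 1.29, adjusted p = 0.0491, edgeR; exact permutation p = 0.0476, two-sided). With libraries 18 to 23 alone the log2 fold change of *Slc39a1* was 0.12 (adjusted p = 0.707, edgeR), and it lost its call in 13 of 22 alternatives. In the Control groups it ranged from 139 to 205 CPM in WT (median 166, n = 6) and from 193 to 218 CPM in APP/PS1 (median 198, n = 6). All but 1 of the WT libraries lay below every APP/PS1 library, library 6 at 205 CPM lay among them, and the log2 fold change of 0.27 (SE 0.12) had an adjusted p of 0.152 (edgeR).

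*Slc39a10* was at 54.4, 67.5, 68.0, 48.6 and 40.2 CPM in Slc11a2KD WT libraries 1, 2, 3, 19 and 22 and at 48.7, 37.8, 39.8, 23.4 and 27.6 CPM in Slc11a2KD APP/PS1 libraries 4, 18, 20, 21 and 23. Libraries 4, 19 and 22 lay where the groups overlapped. It fell by 0.65 on the log2 scale (SE 0.22, adjusted p = 0.0448, edgeR; exact permutation p = 0.0238, two-sided). With libraries 18 to 23 alone the log2 fold change of *Slc39a10* was -0.50 (adjusted p = 0.352, edgeR), and it too lost its call in 13 of 22 alternatives. In the Control groups it ranged from 31.6 to 75.4 CPM in WT (median 56.9, n = 6) and from 37.6 to 50.8 CPM in APP/PS1 (median 44.4, n = 6), and the log2 fold change of -0.28 (SE 0.20) had an adjusted p of 0.454 (edgeR).

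Of the 9 genes, 3 passed the threshold between the Slc11a2KD groups, 2 higher (*Mt1*, *Slc39a1*) and 1 lower (*Slc39a10*), where 16.2% of all genes were called, 9.77% higher and 6.41% lower. At an unadjusted p under 0.05 there were 4, beside 31.7% of all genes. The added gene was *Mt2*. The groups did not overlap for 1 of the 9, *Mt1*, beside 7.06% of all genes. The median log2 fold change of the 9 was 0.12, and that of all genes was -0.07.

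*Slc39a6* was the gene of the 9 that differed most between Slc11a2KD APP/PS1 and Control APP/PS1, a comparison that asks what the knockdown adds in the amyloid model. The gene lies at chr18:24711955-24736969 (GRCm39) on the minus strand. It ranged from 32.2 to 44.6 CPM in Control APP/PS1 (median 36.1, n = 6) and was at 31.3, 28.7, 31.3, 15.1 and 20.8 CPM in Slc11a2KD APP/PS1 libraries 4, 18, 20, 21 and 23. All 5 Slc11a2KD libraries lay below all 6 Control libraries. Knockdown and the run of library numbers cannot be told apart in this comparison. Only library 4 of the Slc11a2KD APP/PS1 group is numbered outside 18 to 23, so a fit that allows for this number range leans on library 4 in this group. The log2 fold change was -0.55 (SE 0.17), and its adjusted p over all genes was 0.205 (edgeR). The two-sided exact permutation test of *Slc39a6* alone gave 0.00216, the lowest value possible with 5 against 6 libraries. Without Slc11a2KD APP/PS1 library 4 the adjusted p of *Slc39a6* was 0.0235 (edgeR), and with the number range 18 to 23 as a covariate its log2 fold change was -0.22 (adjusted p = 1).

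No gene of the 9 passed the threshold in Slc11a2KD APP/PS1 against Control APP/PS1, where 0% of all genes were called (edgeR). Over all genes DESeq2 called 580, edgeR 3069 without library 4 and 4020 with libraries 18 to 23 alone. Among the 9, DESeq2 called 0, with no adjusted p for 5 of them, and limma voom with quality weights 0. At an unadjusted p under 0.05 there was 1, *Slc39a6*, lower, beside 20.6% of all genes. The groups did not overlap for this 1 gene, beside 0.821% of all genes. *Mt1* had a log2 fold change of 0.30 (SE 0.24, adjusted p = 0.520, edgeR) and *Mt2* of 0.24 (SE 0.40, adjusted p = 0.797, edgeR). The others were -0.40 for *Mtf1* (SE 0.22), 0.13 for *Slc30a1* (SE 0.16), 0.04 for *Slc30a7* (SE 0.13), 0.17 for *Slc39a1* (SE 0.12), -0.39 for *Slc39a7* (SE 0.63) and -0.32 for *Slc39a10* (SE 0.21), with adjusted p-values from 0.299 to 0.912 (edgeR).

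Between Slc11a2KD WT and Control WT, 0 of the 9 passed the threshold and 0 of the 9 had an unadjusted p under 0.05 (edgeR), beside 0% and 5.92% of all genes, and DESeq2 and limma voom with quality weights called 0 of the 9. The log2 fold changes were 0.10 for *Mt1* (SE 0.24), -0.27 for *Mt2* (SE 0.40), 0.01 for *Mtf1* (SE 0.22), -0.16 for *Slc30a1* (SE 0.16) and 0.04 for *Slc30a7* (SE 0.13). Those of the importers were 0.07 for *Slc39a1* (SE 0.12), 0.06 for *Slc39a6* (SE 0.17), 0.30 for *Slc39a7* (SE 0.63) and 0.06 for *Slc39a10* (SE 0.21), and the adjusted p was 1 for all 9 genes (edgeR). For 0 of the 9 did the groups not overlap, beside 0.197% of all genes.

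The difference between the APP/PS1 effects in Slc11a2KD and in Control cells was tested as an interaction. It passed for 0 of the 9 genes (edgeR, and likewise DESeq2 and limma voom with quality weights), as for 0% of all genes, and 1 of the 9 had an unadjusted p under 0.05, beside 9.08% of all genes. This gene was *Slc39a6*, with an interaction of -0.61 (SE 0.24, adjusted p = 0.544, edgeR). Its estimate was higher in APP/PS1 among Control cells (log2 fold change 0.33, SE 0.16, adjusted p = 0.201) and lower among Slc11a2KD cells (-0.28, SE 0.17, adjusted p = 0.288, edgeR), and neither passed. Over the alternatives the Control value ran from 0.25 to 0.40. The Slc11a2KD value ran from -0.37 to 0.08 and so changed sign. The interaction of *Mt1* was 0.20 (SE 0.35, adjusted p = 0.850, edgeR), so its APP/PS1 effects under the different treatments were not shown to differ. The interactions of the other 7 genes were 0.51 for *Mt2* (SE 0.57), -0.41 for *Mtf1* (SE 0.31), 0.29 for *Slc30a1* (SE 0.22), -0.0020 for *Slc30a7* (SE 0.18), 0.10 for *Slc39a1* (SE 0.17), -0.69 for *Slc39a7* (SE 0.90) and -0.38 for *Slc39a10* (SE 0.30), with adjusted p-values above that of *Slc39a6* (edgeR).

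**Figure D3:**
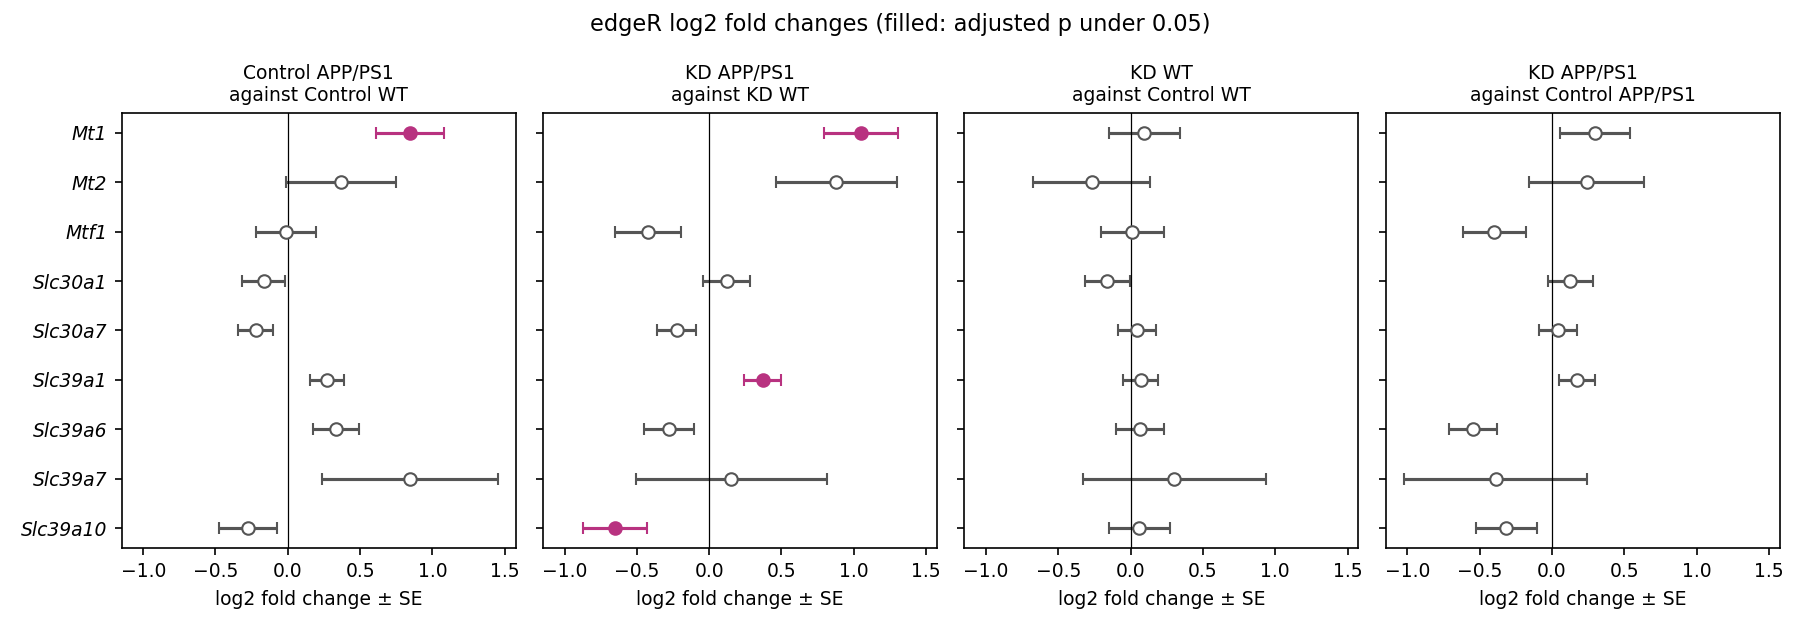
log2 fold change with its SE of each of the 9 genes in the 4 comparisons of groups (edgeR), filled where the adjusted p was under 0.05; KD stands for Slc11a2KD. *Mt1* is filled in both APP/PS1 comparisons, at 0.85 and 1.05, *Slc39a1* and *Slc39a10* in the Slc11a2KD comparison alone, and no gene is filled in the comparisons of knockdown with Control.

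*Slc39a7* was the least abundant of the 9 by these counts, with 0 counts in Control WT library 15, which allows up to 3 counts. It shares 78.3% of its exon bases with the same-strand gene Gm20427, and whether this lowered its counts is not known. Its group means were 1.57, 2.82, 1.94 and 2.15 CPM in Control WT, Control APP/PS1, Slc11a2KD WT and Slc11a2KD APP/PS1. Its log2 fold change between the Control groups was 0.84 with an SE of 0.61 (adjusted p = 0.447, edgeR), and between the Slc11a2KD groups it was 0.15 with an SE of 0.66 (adjusted p = 0.914, edgeR). Its counts in Control WT ran from 0 to 151 in single libraries.

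Libraries of 1 group also differed in these genes, and for 3 of the 36 pairs of the 9 genes, all among *Mt1*, *Mt2* and *Slc39a10*, the differences were related at an adjusted p under 0.05 (Pearson, permutation). Within groups, over 22 libraries after the group mean of log2 CPM had been subtracted, *Mt1* and *Mt2* went together (Pearson's r = 0.80, permutation p = 0.00026, Spearman's rho = 0.73, permutation p = 0.00097). *Mt1* and *Slc39a10* moved in opposite directions (r = -0.91, rho = -0.91, permutation p of 1e-05 for each, the smallest that 100000 permutations can give). Among 11887 genes with a mean of at least 1 CPM, *Slc39a10* had the most negative r with *Mt1*, and it ranked 19 from the negative end with *Mt2* (r = -0.72, rho = -0.63, adjusted p = 0.017 for r and 0.0653 for rho, permutation), for which r within Control APP/PS1 was 0.24. Without libraries 14 and 15, the farthest from the median of *Slc39a10*, its r with *Mt1* was -0.87. Within Control WT it was -0.98 over 6 libraries and within Control APP/PS1 -0.49 over 6 libraries. No r was computed within the Slc11a2KD groups. In each of these, libraries numbered 1 to 4 held less *Mt1* and more *Slc39a10* than those numbered 18 to 23. The permutations did not keep these runs of numbers apart, so their p-values do not allow for them. After adjustment over 53 relations, the p-values for *Mt1* with *Mt2* and with *Slc39a10* were 0.00344 and 0.000177 (Pearson, permutation). Only the relation of *Mt1* with *Mt2* and with marker lists was planned, and the 53 relations were added after the value for *Slc39a10* had been seen.

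**Figure D4:**
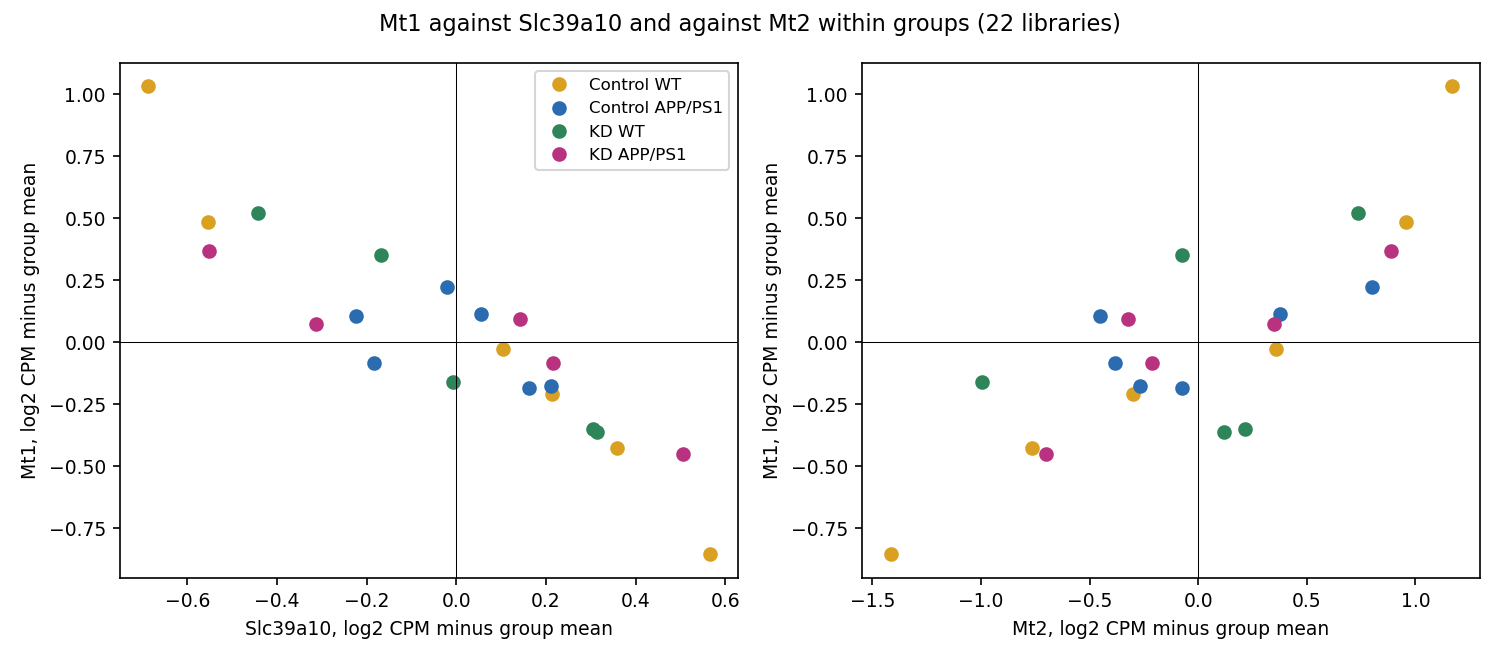
log2 CPM of *Mt1* minus its group mean against the same for *Slc39a10* (left) and *Mt2* (right), 22 libraries coloured by group; KD stands for Slc11a2KD. Libraries with more *Mt1* than their group held less *Slc39a10* (r = -0.91) and more *Mt2* (r = 0.80).

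A property of whole libraries moved with several of these genes. The length slope of a library, the slope of its log2 CPM on the log2 exon length of a gene over 11866 genes, is above 0 where long genes hold more of the counts than on average over the libraries. It ran from 0.0177 to 0.131 in Control WT (median 0.0877, n = 6), from -0.0274 to 0.152 in Control APP/PS1 (median 0.00246, n = 6), from -0.228 to 0.232 in Slc11a2KD WT (median 0.109, n = 5) and from -0.364 to 0.0976 in Slc11a2KD APP/PS1 (median -0.190, n = 5). All 6 libraries numbered 18 to 23, which are of the Slc11a2KD groups, had a slope below 0, and the 4 numbered 1 to 4 a slope above 0. Within groups the slope went with *Mt1* (r = -0.63, rho = -0.71), *Slc39a10* (r = 0.74, rho = 0.75) and *Slc39a6* (r = 0.78, rho = 0.74), with adjusted p-values for r of 0.000177, 0.000177 and 0.0164 (permutation). For *Mt1* and *Slc39a10* the r without libraries 4 and 22 was -0.56 and 0.69. Within Control WT alone (n = 6) the slope had an r of -0.96 with *Mt1* and 0.96 with *Slc39a10*. Within Control APP/PS1 (n = 6) these were -0.39 and 0.51. The slope was fitted out over all 22 libraries at once, so the r that follows does not separate it from *Mt1* and *Slc39a10* within Control WT. After the slope had been fitted out, the r of *Mt1* with *Slc39a10* was -0.85 (permutation p = 0.00078) and rho was -0.60 (permutation p = 0.0155), and for *Mt2* with *Slc39a10* r was -0.61 (permutation p = 0.0315) and rho -0.37 (permutation p = 0.158). With the slope as a covariate, *Mt1* had a log2 fold change of 0.78 (adjusted p = 0.00364, edgeR) between the Control groups and 0.61 (adjusted p = 0.105, edgeR) between the Slc11a2KD groups. With the same covariate *Slc39a1* had 0.17 (adjusted p = 0.399, edgeR) and *Slc39a10* -0.20 (adjusted p = 0.584, edgeR) between the Slc11a2KD groups, and *Slc39a6* -0.24 (adjusted p = 1, edgeR) between the APP/PS1 groups. The part of the slope in these results was not tested beyond this, and the fit with the slope was added after seeing the data.

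**Figure D5:**
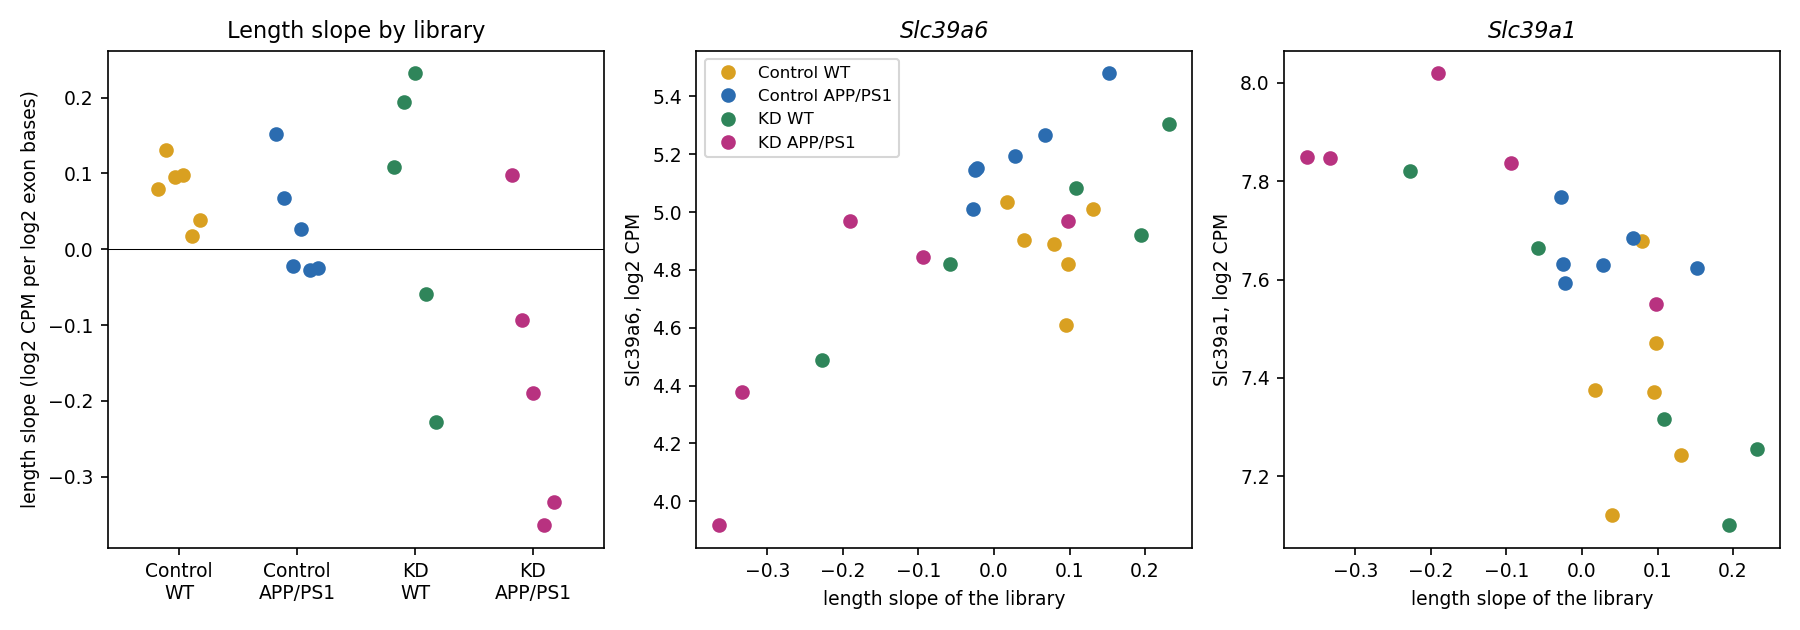
Length slope of each of the 22 libraries by group (left), and log2 CPM of *Slc39a6* (middle) and *Slc39a1* (right) against the slope; KD stands for Slc11a2KD. The libraries of the Slc11a2KD groups run from -0.364 to 0.232, wider than the Control libraries at -0.0274 to 0.152, and those with the lowest slopes hold the least *Slc39a6*.

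Markers of other cells were set beside the metallothioneins. The 10 astrocyte markers summed to a median of 546 CPM in Control WT (134 to 714), 428 in Control APP/PS1 (156 to 588), 163 in Slc11a2KD WT (131 to 504) and 118 in Slc11a2KD APP/PS1 (110 to 684). *Slc1a3* alone had group means of 434, 300, 195 and 203 CPM in this order, so these sums mostly follow 1 gene and are no measure of astrocyte content. One of the 10, *Gfap*, rose in both APP/PS1 comparisons and the other 9 did not pass the test, and *Aqp4*, *Gja1*, *Slc4a4* and *Fgfr3* were at 0 in at least 1 library. Within groups the mean log2 CPM of the list had an r of -0.34 with *Mt1* (rho = -0.39, adjusted p = 0.351 for r, permutation). The 12 markers of choroid plexus epithelium, which makes the cerebrospinal fluid, summed to at most 5.41 CPM in Control APP/PS1 but to up to 2016 CPM in Control WT, 817 CPM in Slc11a2KD WT and 497 CPM in Slc11a2KD APP/PS1. The median sum in Control WT was 5.14 CPM, and libraries 12 and 15 alone, at 2016 and 1033 CPM, were above 5.34 CPM. Between the Control groups 10 of the 12 fell and between the Slc11a2KD groups 0 did, with 0 at an unadjusted p under 0.05 (edgeR). Within groups the mean log2 CPM of these markers had a rho of 0.62 with *Mt1* (r = 0.47, adjusted p = 0.0721 for rho and 0.351 for r, permutation), and r was 0.29 within Control WT and -0.13 within Control APP/PS1. With it as a covariate the log2 fold changes of *Mt1* were 0.99 and 1.02 (adjusted p = 0.00615 and 0.00543, edgeR). The 10 microglia markers summed to 43412 to 49817 CPM in Control WT and 33492 to 38284 in Control APP/PS1, and to 43134 to 50855 CPM in Slc11a2KD WT and 37267 to 40824 in Slc11a2KD APP/PS1, lower in both APP/PS1 groups without overlap. Of these 10 markers 4 fell between the Control groups and 6 between the Slc11a2KD groups, beside the 4.48% and 6.41% of all genes called lower. The 7 border macrophage markers summed to 221 to 428 CPM in Control WT and 91.8 to 197 in Control APP/PS1, and to 258 to 511 CPM in Slc11a2KD WT and 131 to 194 in Slc11a2KD APP/PS1, likewise lower without overlap, and 5 and 3 of them fell. The 8 endothelial markers summed to 167 to 375 CPM in Control WT and 105 to 148 in Control APP/PS1, without overlap, and to 139 to 305 CPM in Slc11a2KD WT and 88.9 to 165 in Slc11a2KD APP/PS1, with overlap, and 5 and 4 of them fell and 1 and 0 rose. The 7 oligodendrocyte markers had a median sum of 1223 CPM in Control WT, 544 in Control APP/PS1, 2053 in Slc11a2KD WT and 830.3 in Slc11a2KD APP/PS1, with overlap in both comparisons, and 5 and 3 of them fell. Between the Control groups 5 of 7 neutrophil and monocyte markers, 2 of 6 mural, 2 of 7 neuronal and 1 of 5 lymphocyte markers also fell, and between the Slc11a2KD groups 0, 1, 0 and 0 did (edgeR). The part of these cell types in the results, other than by the choroid plexus covariate, was not tested. In bulk RNA, fewer cells of a type and less RNA per cell cannot be told apart.

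Of a list of 21 other metallothioneins and zinc transporters, 17 were measured, and the list was chosen with results of these data known. Between the Control groups 3 of the 17 rose and 1 fell, and between the Slc11a2KD groups 5 rose and 1 fell, while 5.99% and 9.77% of all genes were called higher and 4.48% and 6.41% lower, and 0 passed between Slc11a2KD and Control cells. *Slc39a12*, a brain zinc importer, fell from 35.4 CPM ± 6.41 (SD, n = 6) to 7.85 ± 2.59 (SD, n = 6) between the Control groups, with adjusted p = 1.41e-07 (edgeR). Between the Slc11a2KD groups *Slc39a12* was at 29.2 CPM ± 3.93 (SD, n = 5) in WT and 12.0 ± 3.65 (SD, n = 5) in APP/PS1, with adjusted p = 0.000407 (edgeR). *Slc39a14*, an importer of zinc, iron and manganese, rose by a log2 fold change of 0.73 (SE 0.14) and 0.50 (SE 0.16). *Tmem163*, a zinc efflux protein, went from 1.08 CPM ± 1.17 (SD, n = 6) to 28.0 ± 13.4 (SD, n = 6) between the Control groups and from 0.195 ± 0.293 (SD, n = 5) to 38.2 ± 10.3 (SD, n = 5) between the Slc11a2KD groups. *Slc39a2*, an importer, was at or under 0.392 CPM in Control WT and at 2.35 CPM or more in Control APP/PS1, and at or under 0.951 CPM in Slc11a2KD WT and at 1.95 CPM or more in Slc11a2KD APP/PS1. *Slc30a6* (log2 fold change 0.66, SE 0.19) and *Slc39a4* (0.90, SE 0.24) rose between the Slc11a2KD groups. Between the Control groups their log2 fold changes were 0.05 (SE 0.17, adjusted p = 0.909) and 0.52 (SE 0.21, adjusted p = 0.126, edgeR), and the interaction did not pass for either (adjusted p = 0.544 and 0.638, edgeR). *Mt3*, the metallothionein of the brain, went the other way from *Mt1* between the Control groups, from 8.61 CPM ± 6.73 (SD, n = 6) to 3.32 ± 1.25 (SD, n = 6). Its log2 fold change of -1.38 (SE 0.45) just missed the threshold (adjusted p = 0.0512, edgeR). Control WT libraries were scattered, from 1.85 to 20.5 CPM, and the highest was library 12, which also had the highest sum of choroid plexus markers. Between the Slc11a2KD groups *Mt3* was at 7.82 CPM in WT and 7.98 in APP/PS1 (log2 fold change 0.03, SE 0.48, adjusted p = 0.981, edgeR). In Slc11a2KD APP/PS1 against Control APP/PS1 its log2 fold change was 1.27 (SE 0.46, adjusted p = 0.205, edgeR; exact permutation p = 0.00433), and these groups did not overlap.

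Metallothioneins also bind copper, and of 10 genes of copper handling 1 rose between the Control groups and 4 between the Slc11a2KD groups, where 5.99% and 9.77% of all genes were called higher, so that the 1 of 10 was near the background. *Atox1*, the copper chaperone of the secretory pathway, rose in both, from 71.0 CPM ± 17.4 (SD, n = 6) to 143 ± 20.6 (SD, n = 6) and from 75.3 ± 23.9 (SD, n = 5) to 187 ± 50.9 (SD, n = 5). *Ccs*, the copper chaperone of superoxide dismutase, *Commd1* and *Slc31a2*, a copper transporter, rose between the Slc11a2KD groups, by log2 fold changes of 0.68, 0.85 and 0.46 (SE 0.16, 0.24 and 0.15). Between the Control groups their log2 fold changes were 0.18, 0.38 and -0.10 (SE 0.15, 0.22 and 0.14, adjusted p = 0.523, 0.315 and 0.746, edgeR), and their interactions did not pass (adjusted p = 0.544, 0.570 and 0.544, edgeR). The length slope differed between the Slc11a2KD groups, and its part in these values was not tested. Metallothioneins are further induced by glucocorticoids and by stress. Of 10 glucocorticoid response genes 0 passed the test in any comparison (edgeR), with 5 and 4 at an unadjusted p under 0.05 in the APP/PS1 comparisons of Control and Slc11a2KD cells, 2 between the WT groups, 0 between the APP/PS1 groups and 1 for the interaction, beside 24.3%, 31.7%, 5.92%, 20.6% and 9.08% of all genes. All 4 genes of the Slc11a2KD comparison were lower in APP/PS1, as were most of the 5 of the Control comparison, and the rest of these were higher. Of 14 early response and heat shock genes, *Hmox1*, a heme oxygenase, rose in both of these comparisons and *Ier2* between the Slc11a2KD groups, 1 and 2 of the 14 beside 10.5% and 16.2% of all genes called, near the background.

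Apart from the 9 genes themselves, the genes whose levels within groups were most like that of *Mt1*, among 11879 genes with a mean of at least 1 CPM and over 22 libraries, were *Abhd5* (r = 0.87), *Mblac1* (r = 0.86), *Gamt* (r = 0.83), *Cdk5* (r = 0.83) and *Cmtm8* (r = 0.82). For *Mt2*, to which *Mt1* itself had an r of 0.80, they were Gm45552 (r = 0.84), Gm38560 (r = 0.83), *Cd300lf* (r = 0.79), *Upp2* (r = 0.77) and *Llph* (r = 0.77).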

How the data were processed

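RNA of hippocampal CD11b+ cells was sequenced as poly(A)-selected paired-end libraries. The authors trimmed the reads (Trim Galore 0.6.7), aligned them to mm39 with STAR and deposited counts, whole numbers of reads per gene that were not normalized, per the file headers for 23 libraries. A second deposited table, of normalized values, was not used. Control APP/PS1 library 10, taken to be the library the study removed, was left out, and 22 libraries were used. The filter asked for 5 counts or more in 3 libraries or more and kept 18759 genes. After TMM scaling, the quasi-likelihood test of edgeR 4.0.16 (R 4.3.3) was used, all 4 groups in 1 fit, and p-values were adjusted by Benjamini-Hochberg over all genes tested (threshold 0.05). The SE was the log2 fold change divided by the square root of F. The study used DESeq2, which is an alternative here. Single genes were also compared by exact permutation tests of log2 CPM (prior count 2), two-sided. Permutation tests of correlations were made within groups, with 100000 permutations. Exon lengths were taken from GENCODE M39 (GRCm39), which held 18731 of the 18876 genes and is later than the release the authors counted against, and promoters from the RefSeq table on GRCm38.p6. Totals of 31128643 to 54872491 counts limit the precision of low genes most. The test was tested on simulated data. Alternatives were DESeq2 1.42.0, its size factors in edgeR, limma 3.58.1 (voom with quality weights, which give libraries that vary more less weight), no filter, at least 10 counts in every library, calls only where the log2 fold change exceeds 1 in size, only the groups compared, library 10 kept, a choroid plexus score or the library numbers 18 to 23 as a covariate, and each library left out. All 9 genes are named in every comparison, and of the lists of other zinc genes and copper genes those past the threshold. *Mt3*, just outside the threshold, *Hmox1*, *Ier2*, *Slc39a9*, the overlapping genes and the leading markers of other cells were named after their values were seen. The 9 genes and the lists were chosen with earlier results of these data known.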

Additional observations from a re-analysis of the deposited data

Results flagged for a closer look

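*Mtf1* in Control APP/PS1 library 5, at 19.7 CPM, was set apart from the other libraries of its group, of which the nearest was at 16.4 CPM. The gap was 0.626 of the range of the group, just over the critical value of Dixon's test for 6 libraries. Over the 9 genes and 4 groups 36 groups of values were examined in this way, and chance alone sets apart about 1 in 20.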

How the results depend on the processing

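Of the 45 log2 fold changes of the 9 genes, 4 were called and 0 of these kept their call under every alternative, though all 4 kept their direction. *Mt1* between the Control groups ranged from 0.71 to 1.12 (adjusted p up to 0.0535, edgeR) and lost its call without Control WT library 6 or 9 and with the limit of 1 on the log2 fold change. *Mt1* between the Slc11a2KD groups ranged from 0.61 to 1.20 and lost it with libraries 18 to 23 alone and with the length slope. *Slc39a1* (0.12 to 0.53) and *Slc39a10* (-0.79 to -0.20) each lost it in 13 of 22 alternatives, among them library 10 kept (adjusted p = 0.0655 and 0.0912, edgeR), the number range as a covariate and 7 of the 10 fits with 1 library left out. Of the uncalled results, 3 passed under some alternative and 22 changed sign under some alternative without being called: *Slc39a1* between the Control groups passed with only the groups compared and with the number range as a covariate. *Slc39a6* passed between the Control groups with limma voom with quality weights (named limma voom below), only the groups compared and the length slope, and between the APP/PS1 groups without library 4 and with libraries 18 to 23 alone (-0.66, adjusted p = 0.00964, edgeR). The cause of these shifts was not tested.

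The number of genes called, 1965 between the Control groups, was 3421 with limma voom, 918 with the limit on the fold change, 3241 with only the groups compared, 1282 without Control WT libraries 12 and 15, 3679 with the length slope and 1561 to 1969 with 1 library left out. Between the Slc11a2KD groups it was 3034, and 1105 with the limit on the fold change, 1041 with only the groups compared, 1773 with the number range as a covariate, 861 with libraries 18 to 23 alone, 1813 with the length slope and 1977 (without library 2) to 4781 (without library 4) with 1 library left out. For Slc11a2KD APP/PS1 against Control APP/PS1 it was 0, and 580 with DESeq2, 2 with limma voom, 4020 with libraries 18 to 23 alone and 0 to 3069 with 1 library left out, above 0 only without library 4. For Slc11a2KD WT against Control WT it was 0, and 10 with DESeq2, 1 with limma voom, 19 with libraries 18 to 23 alone and 0 to 1 with 1 library left out. For the interaction it was 0, and 25 with DESeq2, 1 with limma voom, 1 with libraries 18 to 23 alone and 0 to 1 with 1 library left out. The fits with libraries 18 to 23 alone, without Control WT libraries 12 and 15 and with the length slope were chosen after seeing the data. No paired analysis was possible because the library numbers are unique and shared by no groups.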
